A study of Homo sapiens with 6 samples.

Results

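The 42 genes described here encode the proteasome, together with its activators and assembly factors, and were chosen by name. They comprised 15 genes of the core particle, 9 of the base and 8 of the lid of the regulatory particle, 3 chaperones of the base, 4 activators and 3 core assembly factors. Among the 23406 features measured, 41 of the 42 genes were matched by symbol and all 41 passed the low-count filter that left 14071 features for testing. PSMB3, a subunit of the beta ring, was not matched, and its expression is not analysed here. RNA-seq was performed in Hep-3B, a human hepatocellular carcinoma cell line of genotype WT, after lentiviral delivery of a control hairpin (shControl) or of a hairpin against NXN (shNXN), which encodes the oxidoreductase nucleoredoxin. Both groups were selected in puromycin as pooled populations, and each held 3 libraries, collected at day 7, day 9 and day 11. The 3 days served as replicates, and nothing in the sources used here says that they were separate cultures, so p-values measure the spread between these libraries. The question was which transcripts differ once NXN is depleted.

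The proteasome degrades proteins tagged with ubiquitin. Its core particle is a barrel in which rings of alpha subunits gate the entry and rings of beta subunits carry the proteolytic sites, and a regulatory particle of a base and a lid binds, deubiquitinates, unfolds and threads the substrate into the barrel. Subunits are needed in fixed proportions in the finished complex, and their genes are known to be induced together by NFE2L1, a transcription factor that binds antioxidant response elements with small MAF proteins when proteasome activity is limiting.

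The promoters of 4 members with large differences between the groups are shown because each holds a match to TGACNNNGC, the letters searched for this element. They were picked for both traits, so they do not tie the match to the differences. PSMC6 and PSMA2, with log2 fold changes of −1.60 and −1.44, held no match. Binding at these matches was not tested. The RefSeq windows of 250 bases before the transcription start, in GRCh38.p14 and in the direction of the gene, lie at chr17:67366578-67366827 on the minus strand for PSMD12, at chr15:78540536-78540785 on the plus strand for PSMA4, at chr2:53970994-53971243 on the minus strand for PSME4 and at chr14:24135944-24136193 on the plus strand for PSME1. Capitals mark a match to TGACNNNGC on either strand, which lay nearest to the start in PSME4.
PSMD12: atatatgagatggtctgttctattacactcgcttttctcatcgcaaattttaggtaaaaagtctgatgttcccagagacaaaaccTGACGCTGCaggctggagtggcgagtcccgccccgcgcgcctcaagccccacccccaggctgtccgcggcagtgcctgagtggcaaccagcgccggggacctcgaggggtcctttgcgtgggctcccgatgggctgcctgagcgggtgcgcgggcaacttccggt
PSMA4: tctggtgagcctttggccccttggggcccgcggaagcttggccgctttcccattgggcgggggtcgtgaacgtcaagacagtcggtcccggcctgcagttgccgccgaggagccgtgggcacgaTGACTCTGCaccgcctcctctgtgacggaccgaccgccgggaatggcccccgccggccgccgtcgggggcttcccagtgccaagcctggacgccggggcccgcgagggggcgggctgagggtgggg
PSME4: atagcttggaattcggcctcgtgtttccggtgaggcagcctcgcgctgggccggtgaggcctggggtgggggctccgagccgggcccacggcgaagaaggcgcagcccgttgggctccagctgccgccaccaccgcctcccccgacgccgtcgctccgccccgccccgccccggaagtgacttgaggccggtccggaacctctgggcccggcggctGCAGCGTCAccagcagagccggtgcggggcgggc
PSME1: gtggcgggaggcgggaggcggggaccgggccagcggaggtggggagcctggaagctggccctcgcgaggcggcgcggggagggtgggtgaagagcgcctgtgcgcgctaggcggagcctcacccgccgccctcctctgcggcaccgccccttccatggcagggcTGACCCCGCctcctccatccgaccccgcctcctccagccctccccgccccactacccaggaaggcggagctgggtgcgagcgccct
PSMA4 had 3 windows in the table, of which this one held the match. Transcripts of PSMD12, PSMA4 and PSME4 were lower and those of PSME1 higher in shNXN, as described below for each, so that a match was found beside differences in both directions. TGACNNNGC was found in 12 of the 37 members in the promoter table, PSMB3 included (32.4%), against 13.2% of all 27305 genes. A CCAAT box (CCAAT) was found in 17 members (45.9%), against 37.0% of all genes, and a GC box (GGGCGG) in 24 (64.9%), against 46.2%. The 3 motifs do not contain one another but may overlap at their ends, both strands were searched, and a match is a description of the letters only.

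NXN itself measured 181, 138 and 143 CPM, the count scaled by library size, in shControl at days 7, 9 and 11 and 42.7, 47.5 and 39.5 CPM in shNXN. Its log2 fold change was −1.83 (SE 0.16, edgeR quasi-likelihood adjusted p = 0.0378), and the groups did not overlap. Total counts were between 15349382 and 16332589 per library, and the members took between 0.651% and 0.763% of them. All 14 hepatocyte markers were at 1 CPM or more, with summed levels of 19527 to 26460 CPM in shControl and 10824 to 21083 CPM in shNXN. Of the markers of other cell types, PTPRC, CD3E, VWF, CDH5, COL1A2, DCN and LUM were under 1 CPM in shControl and shNXN. The summed leukocyte list, in which CD68 alone reached 1 CPM, was 57.4 to 75.6 CPM in shControl and 87.1 to 97.5 CPM in shNXN, and the part of the marker differences in the results was not tested. The summed fibroblast list, with 2 of 5 genes at 1 CPM or more, was 4.92 to 7.24 CPM in shControl and 6.68 to 8.76 CPM in shNXN, and the endothelial list reached at most 0.0613 CPM. In bulk RNA, fewer cells of a kind and less RNA per cell cannot be told apart.

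The members did not move as a unit. With the 3 libraries of each group compared directly, none of the 41 members passed an adjusted p of 0.05 in edgeR's quasi-likelihood test, against 3.39% of all features (3.21% lower and 0.185% higher). An unadjusted p under 0.05 was reached by 20 of the 41 (48.8%), against 32.9% of all features, 13 of them lower (21.3% of all features) and 7 higher (11.6%) in shNXN, and DESeq2 called 14 of 41, against 23.5% of all features, with 11 lower (16.8% of all features) and 3 higher (6.74%). When the day was entered as a block, so that each shNXN library was set against the shControl library of its own day, 13 of 41 members passed (31.7%), against 23.3% of all features. With the block, 10 members fell (17.0% of all features did), namely PSMA4, PSMC6, PSMD5, PSMD10, PSMD12, PSMD14, PSME4, PSMG1, PSMG2 and POMP, and 3 rose (6.28% of all features did), namely PSMC3, PSMD4 and PSME1. The 3 libraries of each group did not overlap in 24 of the 41 members, against 40.6% of all features, with 14 lower (21.5% of all features) and 10 higher (19.0%) in shNXN. The median log2 fold change was −0.06 over the members and 0.03 over all features tested.

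**Figure D1:**
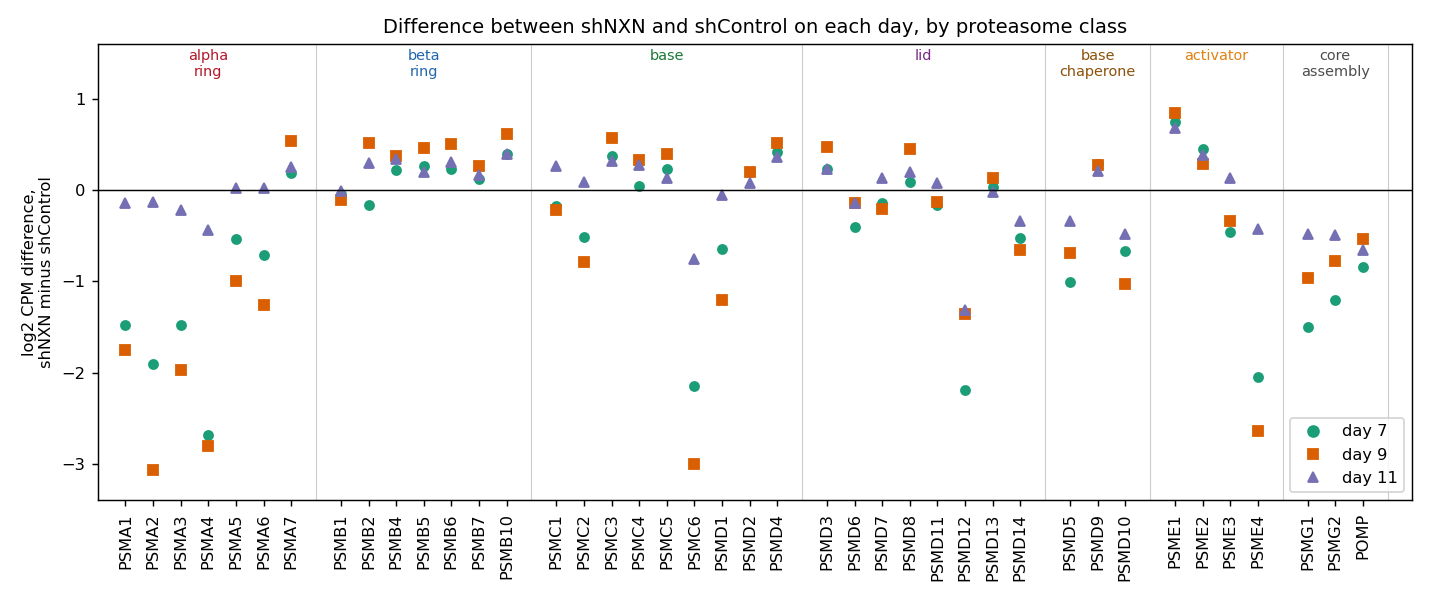
Log2 difference of shNXN from shControl in CPM for each of the 41 members (columns, grouped by role), with a symbol for each of days 7, 9 and 11. In all, 6 of the 7 alpha ring genes lie below 0 on days 7 and 9. These genes lie nearer to 0 on day 11, where PSMA4 is at −0.44. The beta ring genes lie near or above 0 on each day.

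In the alpha ring, whose subunits form the gate of the core, 6 of 7 transcripts had lower means in shNXN and the median log2 fold change was −0.97. PSMA4 (ENSG00000041357) measured 152, 137 and 160 CPM in shControl and 23.6, 19.7 and 118 CPM in shNXN. All of its shNXN libraries were below the lowest shControl library, days 7 and 9 by far and day 11 by less. The log2 fold change was −1.48 (SE 0.65, edgeR adjusted p = 0.163), and with the day as a block it was −1.99 (SE 0.52, edgeR adjusted p = 0.0491). PSMA2 measured 221, 324 and 191 CPM in shControl and 58.9, 38.6 and 175 CPM in shNXN, a log2 fold change of −1.44 (SE 0.54, edgeR adjusted p = 0.125, and 0.0792 with the block). PSMA1 measured 150, 181 and 155 CPM against 53.7, 54.0 and 140 CPM, and PSMA3 measured 94.1, 87.6 and 84.6 CPM against 33.6, 22.3 and 72.6 CPM. Both had the same layout, with day 11 in shNXN nearest to the shControl range, and neither passed (edgeR adjusted p with the block 0.0608 for PSMA1 and 0.0576 for PSMA3). PSMA6 measured 252, 328 and 250 CPM against 154, 137 and 254 CPM, and PSMA5 measured 91.4, 137 and 116 CPM against 62.7, 68.6 and 118 CPM, so that the groups overlapped at day 11 in these genes. PSMA7 lay on the other side, at 337, 324 and 311 CPM in shControl and 384, 471 and 371 CPM in shNXN, a log2 fold change of 0.34 (SE 0.14, edgeR adjusted p = 0.139). PSMA6 and PSMA2 have 4 and 3 annotated pseudogenes named after them, and outside this ring PSMD10 and PSME2 have 3 and 2. Reads could be split between a gene and its pseudogenes where their sequences are alike, but the sequences were not compared.

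In the beta ring, 6 of 7 transcripts had higher means in shNXN, the median log2 fold change was 0.31, and none passed the edgeR test, with or without the block. The catalytic subunits of the constitutive core are PSMB5, PSMB6 and PSMB7, which carry the chymotrypsin-like, caspase-like and trypsin-like sites. PSMB5 measured 267, 275 and 265 CPM in shControl and 319, 379 and 304 CPM in shNXN, a log2 fold change of 0.31 (SE 0.13, edgeR adjusted p = 0.145, and 0.0792 with the block). PSMB6 measured 172, 188 and 143 CPM against 201, 266 and 177 CPM, and PSMB7 measured 175, 180 and 186 CPM against 191, 216 and 210 CPM. The groups did not overlap for PSMB5 and PSMB7 and did for PSMB6. PSMB4, a structural subunit, measured 365, 383 and 338 CPM against 426, 496 and 428 CPM (log2 fold change 0.32, SE 0.12, edgeR adjusted p = 0.134). PSMB1, also structural, measured 257, 308 and 255 CPM against 250, 286 and 254 CPM, a log2 fold change of −0.05. PSMB10, the immunoproteasome subunit that can take the place of PSMB7, was low in every library, at 6.10, 6.89 and 3.99 CPM against 8.09, 10.6 and 5.28 CPM. The other immunoproteasome subunits, PSMB8 and PSMB9, stayed under the low-count filter, with at most 0.122 and 0.613 CPM in any library.

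**Figure D2:**
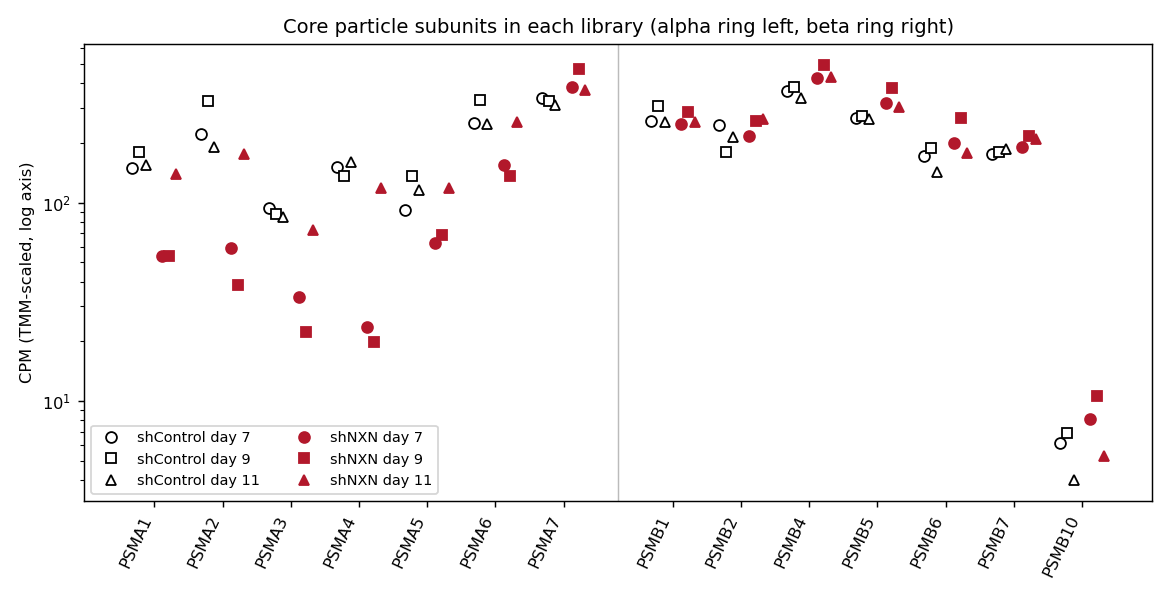
CPM of the matched alpha and beta ring genes in each library, on a log axis, with open symbols for shControl, filled symbols for shNXN, and a circle, square and triangle for days 7, 9 and 11. In PSMA1 to PSMA6 the filled triangle lies close to the open symbols, at 118 CPM in PSMA4, while the filled circle and square lie lower, at 23.6 and 19.7 CPM.

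The proportion of alpha to beta ring transcripts therefore differed between libraries. The geometric mean level of the 7 alpha genes, in FPKM, was 1.24, 1.45 and 1.32 times that of the 7 beta genes in shControl at days 7, 9 and 11, and 0.49, 0.372 and 1.06 times in shNXN. The shNXN ratio was below every shControl ratio, and day 11 was nearer to shControl than to the other shNXN libraries. The alpha genes together had geometric means of 201, 238 and 208 FPKM in shControl and 93.4, 85.4 and 185 FPKM in shNXN, while the beta genes had 161, 165 and 157 FPKM and 191, 230 and 174 FPKM. The size of the ratio depends on which genes enter it, since PSMB10 is low and PSMB3 is missing. Without PSMA7 and PSMB10 it was 0.65, 0.802 and 0.682 in shControl and 0.224, 0.166 and 0.529 in shNXN, with the same order of the libraries by group.

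**Figure D3:**
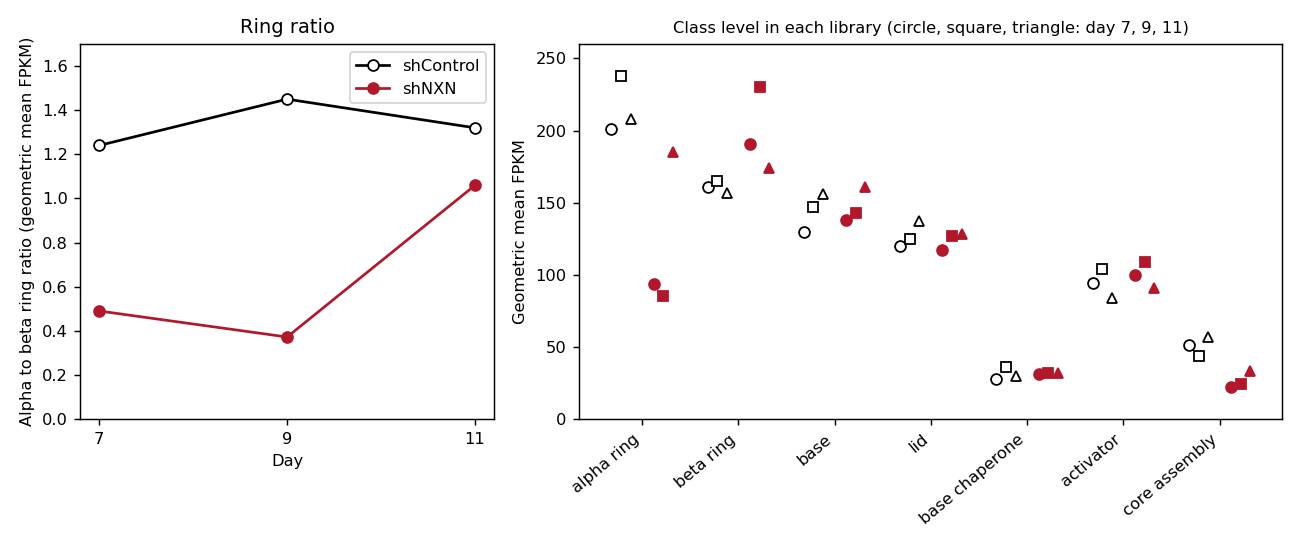
Left, ratio of the geometric mean FPKM of the alpha ring genes to that of the beta ring genes in each library by day. Right, geometric mean FPKM of each class in each library, with shControl open and shNXN filled. The ratio is 1.24 to 1.45 in shControl and 0.372 to 1.06 in shNXN, and among the classes the core assembly factors also have all shNXN points below all shControl points.

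In the base of the regulatory particle, which unfolds substrates and binds ubiquitin chains, the 9 members had a median log2 fold change of 0.16, with 4 lower and 5 higher. One of the 6 ATPases, PSMC6 (ENSG00000100519), had the lowest log2 fold change of all members. It measured 115, 123 and 143 CPM in shControl and 25.9, 15.3 and 84.6 CPM in shNXN, with no overlap. The log2 fold change was −1.60 (SE 0.58, edgeR adjusted p = 0.114), and it passed with the block at −1.97 (SE 0.44, edgeR adjusted p = 0.0369). PSMC3 (ENSG00000165916), another ATPase of the same ring, measured 146, 148 and 167 CPM against 189, 219 and 210 CPM and rose with the block by 0.42 on the log2 scale (SE 0.10, edgeR adjusted p = 0.0435, and 0.084 without it). PSMD4 (ENSG00000159352), a receptor for ubiquitin chains, measured 184, 202 and 194 CPM against 246, 289 and 249 CPM and rose with the block by 0.43 (SE 0.10, edgeR adjusted p = 0.0358, and 0.0772 without it). PSMC3 and PSMD4 were higher in shNXN in every library, on each day, and the day 11 libraries did not stand apart. After the GC correction described below, their log2 fold changes were 0.09 and 0.16 (edgeR adjusted p = 0.818 and 0.566). The scaffold subunits gave different values, with 247, 328 and 291 CPM against 158, 142 and 282 CPM for PSMD1 and 437, 516 and 526 CPM against 502, 594 and 554 CPM for PSMD2. In FPKM, PSMD1 measured 85.0, 117 and 99.2 in shControl and 94.5, 95.8 and 93.0 in shNXN. No such difference was therefore seen for PSMD1 on the FPKM scale. PSMC1 has 13 annotated pseudogenes named after it. At −0.01 (SE 0.23) in edgeR and 0.01 in DESeq2, the log2 fold change of PSMC1 gave no direction on the count scale.

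In the lid, which removes ubiquitin from the substrate, the median of the 8 members was −0.06. The structural subunit PSMD12 (ENSG00000197170) measured 99.5, 61.7 and 127 CPM in shControl and 21.7, 23.9 and 51.3 CPM in shNXN. The groups did not overlap, and the difference was present on each day, at −2.19, −1.36 and −1.31 on the log2 scale. Its log2 fold change was −1.57 (SE 0.40, edgeR adjusted p = 0.0671), and with the block it fell by 1.62 (SE 0.21, edgeR adjusted p = 0.0157). PSMD14 (ENSG00000115233), the deubiquitinase of the lid, measured 181, 211 and 221 CPM against 125, 133 and 175 CPM and fell by 0.51 with the block (SE 0.11, edgeR adjusted p = 0.0339, and 0.101 without it). In FPKM the same gene measured 110, 124 and 134 in shControl and 154, 157 and 108 in shNXN, so that its direction differed between the count and the FPKM scale. The remaining 6 lid subunits had log2 differences between −0.40 and 0.47 on each of the days and none passed.

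The 3 core assembly factors among the members, PSMG1, PSMG2 and POMP, were lower in shNXN, with a median log2 fold change of −0.80. This did not hold for every assembly factor of the core. PSMG1 (ENSG00000183527) and PSMG2 (ENSG00000128789) form a heterodimer that guides the building of the alpha ring. PSMG1 measured 31.1, 27.7 and 29.5 CPM in shControl and 11.0, 14.2 and 21.1 CPM in shNXN, and fell by 0.98 with the block (SE 0.23, edgeR adjusted p = 0.0395, and 0.0752 without it). PSMG2 measured 33.6, 26.5 and 34.0 CPM against 14.5, 15.4 and 24.1 CPM, and fell by 0.83 with the block (SE 0.19, edgeR adjusted p = 0.0369, and 0.087 without it). POMP (ENSG00000132963), which assists the beta ring, measured 68.4, 54.6 and 84.5 CPM against 38.2, 37.5 and 53.4 CPM, and fell by 0.68 with the block (SE 0.12, edgeR adjusted p = 0.0259, and 0.0974 without it). None of these genes overlapped between the groups, with shNXN below shControl throughout. PSMG3 and PSMG4, which form the other heterodimer of alpha ring assembly and were listed as related genes, lay on the other side. PSMG3 measured 69.1, 60.0 and 62.3 CPM in shControl and 73.3, 81.8 and 78.0 CPM in shNXN, and PSMG4 measured 17.9, 17.4 and 13.7 CPM against 18.0, 21.0 and 18.2 CPM. Their log2 fold changes of 0.28 and 0.22 did not pass (edgeR adjusted p = 0.185 and 0.431) and were −0.06 and −0.03 after the GC correction described below. PSMG1 was also the one member that passed with limma on log2(FPKM + 1), at −1.13 (SE 0.22, adjusted p = 0.0498), a scale on which 2.04% of all features passed.

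Among the chaperones of the base, PSMD5 (ENSG00000095261) measured 66.5, 59.5 and 68.4 CPM against 33.0, 37.0 and 54.1 CPM and fell by 0.68 with the block (SE 0.17, edgeR adjusted p = 0.0428). PSMD10 (ENSG00000101843), also known as gankyrin, measured 25.6, 32.9 and 27.7 CPM against 16.1, 16.1 and 19.9 CPM and fell by 0.73 with the block (SE 0.17, edgeR adjusted p = 0.0386). Neither passed without the block (edgeR adjusted p = 0.098 and 0.0679). PSMD10 measured 22.6, 29.8 and 23.4 FPKM in shControl and 25.3, 25.1 and 27.0 FPKM in shNXN, so that no such difference was seen on the FPKM scale. PSMD9 had a log2 fold change of 0.26 and did not pass.

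The activators, which bind the core in place of the regulatory particle, included the highest log2 fold change of the members. PSME1 (ENSG00000092010), a subunit of the interferon-inducible cap, measured 77.4, 76.6 and 49.4 CPM in shControl and 129, 137 and 79.4 CPM in shNXN. All shNXN libraries were above all shControl libraries, day 11 was the lowest of both groups, and the differences of 0.74, 0.84 and 0.68 on the log2 scale were alike on the 3 days. The log2 fold change was 0.77 (SE 0.27, edgeR adjusted p = 0.107), and PSME1 rose with the block by 0.76 (SE 0.10, edgeR adjusted p = 0.0169). Its partner in the same cap, PSME2, measured 86.3, 109 and 66.7 CPM against 118, 133 and 87.0 CPM, with groups that overlapped and an edgeR adjusted p of 0.296 (0.0546 with the block). PSME3, the nuclear activator, measured 270, 265 and 294 CPM against 196, 210 and 321 CPM. PSME4 (ENSG00000068878), the large single-chain activator, measured 232, 275 and 242 CPM against 55.9, 43.9 and 179 CPM, a log2 fold change of −1.42 (SE 0.51, edgeR adjusted p = 0.111), and fell by 1.72 with the block (SE 0.44, edgeR adjusted p = 0.0479).

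The number of members that passed depended on the day 11 library of shNXN, as it did on the block and the tool. Without that library, 19 of 41 members passed the edgeR test, against 25.8% of all features, 17 of them lower (21.4%) and 2 higher (4.4%). With both day 11 libraries left out, a comparison of days 7 and 9 chosen after the values were seen, 21 members passed, against 31.8% of all features, 18 of them lower (23.8% of all features) and 3 higher (7.99% of all features). These included 6 of the 7 alpha ring genes and none of the beta ring genes. In that comparison the log2 fold change was −2.74 for PSMA4 (SE 0.16, edgeR adjusted p = 0.000294) and −2.48 for PSMA2 (SE 0.26, edgeR adjusted p = 0.000626). The median log2 difference of the alpha ring was −1.48 at day 7, −1.75 at day 9 and −0.13 at day 11, whereas that of the beta ring was 0.22, 0.46 and 0.30, and that of all features was between −0.00 and 0.07. The differences of NXN on these days were −2.08, −1.53 and −1.85 on the log2 scale, so its own difference at day 11 lay between those of the other days. Of the 41 members, 16 were lower on each day (39.0%, against 32.6% of all features) and 16 were higher on each day (39.0%, against 35.8% of all features). A test of whether the difference changed with the day, with 2 residual degrees of freedom, called no member in edgeR (0.0% of all features), and at an unadjusted p under 0.05 it held PSMA4 alone among the members, against 1.08% of all features.

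The log2 fold changes of the members followed the GC content of their transcripts. Across the 41 members, Spearman's rho between the GC content of the longest transcript and the log2 fold change was 0.76, and across 12740 features it was 0.79. The points share the same 6 libraries, so this is a description. Of the 17 members under 45% GC, 16 were lower in shNXN, with a median log2 fold change of −0.65. Of the 14 members at 50% GC or more, 13 were higher, with a median of 0.32, and PSMG2 was the exception. The median GC content was 40.7% in the alpha ring and 49.9% in the beta ring, and PSMA7, the alpha gene that was higher in shNXN, had 55.5%. PSMA2 and PSMB1 both had 40.7% by this measure, with log2 fold changes of −1.44 and −0.05. The longest annotated transcript, of 4251 bases for PSMA2 and 4890 for PSMD14, need not be the form present in these cells. The GC content of single genes, and their corrected values below, are therefore uncertain. After a correction that removed the trend with GC content in each library, whatever its origin, no member passed in edgeR (0.0355% of all features did). In that fit the median of the alpha ring moved from −0.97 to 0.01 and that of the beta ring from 0.31 to 0.13. The alpha ring genes did not all move to this median, which was the value of PSMA7. PSMA4, PSMA1 and PSMA2 were still lower in shNXN, at −1.01, −0.86 and −0.77, while PSMA3, PSMA5 and PSMA6 were at 0.08, 0.69 and 0.47. Of the core assembly factors, PSMG1 and PSMG2 were at −0.85 and −1.04 in the same fit, and POMP turned to 0.82. PSMC6, PSMD12 and PSME4 were at −0.74, −0.45 and −0.83, and PSMC3, PSMD4 and PSME1 at 0.09, 0.16 and 0.49. PSMD5, PSMD10 and PSMD14 turned to 0.12, 0.02 and 1.15. With both the block and the correction, 1 of 41 members passed, against 0.931% of all features (0.362% lower and 0.569% higher). This was PSMD14, at 32% the member of lowest GC content by its longest transcript, and its direction was reversed, to 1.21 higher (edgeR adjusted p = 0.0402). The part of GC content in the differences was not tested beyond this correction.

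**Figure D4:**
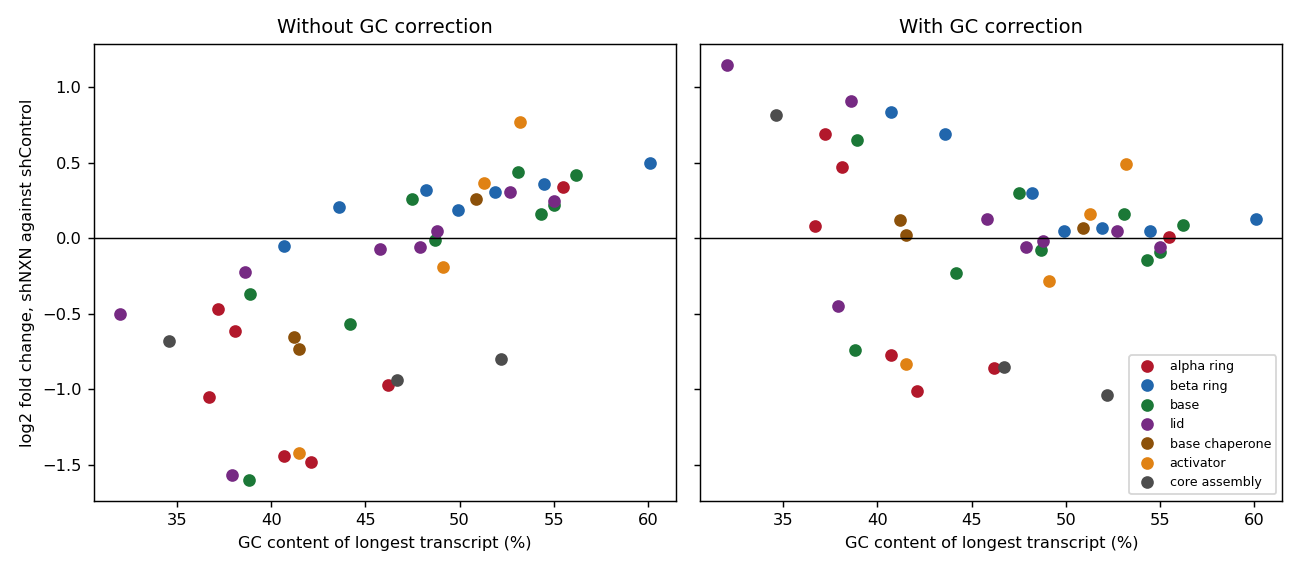
Log2 fold change (shNXN over shControl) of the 41 members against the GC content of the longest transcript in percent, before (left) and after (right) the GC correction, with symbols by class. Before the correction low-GC members lie below 0 and high-GC members above 0 (Spearman's rho 0.76), and after it the rho is −0.22.

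By level per length, the members spanned a wide range in shControl. PSMB4 had the highest mean, 519 ± 14.0 FPKM (SD, n = 3), followed by PSMA7 at 447 ± 11.8 FPKM and PSMB1 at 404 ± 35.9 FPKM. PSMB10 had the lowest, 7.59 ± 1.18 FPKM. PSMA7 and PSMB1 did not differ beyond their spread, since the highest PSMB1 library, at 444 FPKM, was above the lowest PSMA7 library, at 435 FPKM. The activators PSME3 and PSME4 stood at 176 ± 35.0 and 41.2 ± 4.69 FPKM, and the assembly factors between 40.6 and 65.2 FPKM, below the median alpha ring gene (189 FPKM) and beta ring gene (277 FPKM).

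Of 36 further genes listed around the proteasome, which are further subunits and assembly factors, regulators, shuttles, deubiquitinases and ubiquitin genes, 32 passed the low-count filter and had a median log2 fold change of 0.11. Without the block 2 of 32 passed (6.25%, against 3.39% of all features), and with it 8 of 32 passed (25.0%, against 23.3%). After the GC correction none of the 32 passed in edgeR. The deubiquitinases that dock on the regulatory particle are UCHL5 and USP14. UCHL5 measured 45.6, 30.6 and 55.9 CPM in shControl and 17.2, 15.3 and 18.6 CPM in shNXN, and fell by 1.37 on the log2 scale (SE 0.25, edgeR adjusted p = 0.0456). USP14 measured 118, 121 and 132 CPM against 29.6, 28.9 and 66.8 CPM, a log2 fold change of −1.57 (edgeR adjusted p = 0.0532, and 0.0184 with the block). ZFAND5, a proteasome-binding zinc finger protein, fell by 0.89 (SE 0.18, edgeR adjusted p = 0.0496). Both UCHL5 and ZFAND5 changed sign with the GC correction, to 0.14 and 0.10. Of the transcription factors, NFE2L1 measured 464, 485 and 434 CPM against 556, 634 and 505 CPM and did not pass (edgeR adjusted p = 0.166, and 0.0737 with the block). Its relative NFE2L2, the main regulator of the antioxidant response, measured 281, 178 and 155 CPM against 64.9, 46.1 and 98.5 CPM and fell by 1.58 with the block (edgeR adjusted p = 0.0292, and 0.0532 without it). MAFG, a small MAF partner of both factors, rose with the block by 0.48 (edgeR adjusted p = 0.0385). The shuttle factor UBQLN1 fell by 0.55 with the block (edgeR adjusted p = 0.0233). The base and lid components ADRM1, a ubiquitin receptor, and SEM1 did not pass, at 321, 277 and 340 CPM against 344, 414 and 438 CPM for ADRM1 and 47.8, 95.7 and 44.2 CPM against 53.7, 51.4 and 47.6 CPM for SEM1 (edgeR adjusted p with the block 0.0877 and 0.526). The polyubiquitin gene UBB measured 883, 898 and 794 CPM against 1165, 1212 and 1007 CPM and passed with the block at 0.39 (edgeR adjusted p = 0.0373), although it is made of near-identical repeats, so that its value is uncertain.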

How the data were processed

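Per the labels, total RNA was taken from Hep-3B cells and made into mRNA libraries. The authors deposited 2 tables, one of estimated counts per gene and one of FPKM, each with a column for every one of the 6 libraries. The submitters' processing notes name the mouse builds GRCm38 and mm10, although the identifiers are human Ensembl genes. The aligner, counter and annotation are not given in the sources used here. Symbols were found for 19433 of 20314 Ensembl identifiers.

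The members and lists were chosen with earlier results of these data known. The rule for genes named with values took the members and related genes that passed with or without the block, the 5 highest and 5 lowest members by log2 fold change, the catalytic, immune and ubiquitin-handling subunits, the activators, POMP, NFE2L1, ADRM1 and SEM1. PSMA1, PSMA3, PSMA5, PSMA6, PSMA7, PSMB1, PSMB4, PSMD1 and others outside it were picked with their values in view. Some genes of the lists are not reported here. The deposited estimated counts were rounded, filtered with filterByExpr (14071 features kept), scaled by TMM and tested with edgeR 4.0.16 (quasi-likelihood, R 4.3.3) for shNXN against shControl, with Benjamini-Hochberg adjustment over all features at 0.05. The SE was taken from the F statistic. The labels give the libraries of both groups the same days, and deviations from the group means correlated at 0.304, 0.309 and 0.451 between same-day libraries, so the fit with the day as a block stands beside the unblocked one. Deposited FPKM values were tested with limma 3.58.1 on log2(FPKM + 1). Alternatives were DESeq2 1.42.0, other scaling, no filter, a pseudocount of 0.1, a GC correction (natural spline, 5 degrees of freedom, GC content known for 12740 features and all 41 members), each library left out, and days 7 and 9 only. In data simulated on 13941 features, 70.5% of 200 changed genes were recovered for this comparison with 10 false calls, and 64.0% with the block with 3. The simulation had the same dispersion for every gene, no day effect and no GC trend, and its changes were larger than those of most members. These shares therefore do not give the recovery to be had for the members in the real libraries.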

Additional observations from a re-analysis of the deposited data

Results flagged for a closer look

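Among the members, 8 had a difference at day 11 of opposite sign to those at days 7 and 9, on the log2 scale of shNXN over shControl. PSMA5 was at −0.54 and −1.0 and then 0.02, and PSMA6 was at −0.71 and −1.26 and then 0.02. In the regulatory particle, PSMC1 was at −0.17 and −0.22 and then 0.26, PSMC2 at −0.51 and −0.79 and then 0.09, PSMD7 at −0.14 and −0.21 and then 0.13, PSMD11 at −0.16 and −0.13 and then 0.08, and PSMD13 at 0.03 and 0.13 and then −0.02. The activator PSME3 was at −0.46 and −0.34 and then 0.13. Each day held 1 library per group, so the sign at a single day was not tested. Several of these values lay near 0, such as 0.02 for PSMA5 and PSMA6. The share of all features with such a turn was not counted, so the 8 are not a trait of the members. Of all features, 32.6% were lower and 35.8% higher in shNXN on each day, against 39.0% and 39.0% of the members. A gene-wise edgeR test of whether the difference changed with the day, as a linear trend with 2 residual degrees of freedom, called none of the 41 members.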

How the results depend on the processing

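For all features, 477 passed in edgeR without the block (451 lower and 26 higher in shNXN), 826 with RLE factors, 3311 in DESeq2, 818 with no filter, 3272 with the replicate block (2389 lower and 883 higher), 5 with the GC correction, 131 with both, 287 and 66 in limma with pseudocounts of 1 and 0.1, and 4519 with days 7 and 9 only, and leaving out 1 library gave 0 to 3706. For the 41 members, the count of 0 became 14 in DESeq2, 13 with the replicate block, 1 with block and GC correction, 1 in limma on log2(FPKM + 1) and 21 with days 7 and 9 only, and leaving out 1 library gave 0 to 19. For the 32 related genes, the count of 2 became 4 with RLE factors, 6 in DESeq2, 4 with no filter, 8 with the block, 0 with the GC correction alone or with the block, 1 in limma with a pseudocount of 0.1 and 12 with days 7 and 9 only, and leaving out 1 library gave 0 to 11. The log2 fold change of NXN was −1.90 to −1.67 with 1 library left out, and in 4 of these fits it did not pass.

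Class medians moved as follows. Over all members the median became 0.11 in both limma fits and −0.22 to −0.00 with 1 library left out. With the GC correction alone and with the block, the alpha ring moved to 0.01 in both, the beta ring to 0.13 and 0.12, the base to −0.08 and −0.10, the chaperones of the base to 0.07 in both, and the activators to −0.07 with both choices. In both GC-corrected fits the alpha ring median was the value of PSMA7, with PSMA1, PSMA2 and PSMA4 lower in shNXN and PSMA3, PSMA5 and PSMA6 higher. The chaperones were at 0.04 in both limma fits and at −0.85 with days 7 and 9 only. With 1 library left out the beta ring ranged from 0.18 to 0.36, the base from 0.11 to 0.27 and the lid from −0.20 to 0.03.

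With the GC correction, alone and then with the block, the sign turned for PSMA3 (0.08, 0.07), PSMA5 (0.69, 0.74), PSMA6 (0.47, 0.51), PSMB1 (0.84, 0.80), PSMC2 (0.65, 0.67), PSMC4 (−0.09, −0.10), PSMD2 (−0.14, −0.14), PSMD6 (0.91, 0.88), PSMD7 (0.13, 0.13), PSMD8 (−0.06, −0.07), PSMD13 (−0.02, −0.02), PSMD14 (1.15, 1.21), PSMD5 (0.12, 0.11), PSMD10 (0.02, 0.03), POMP (0.82, 0.81), ADRM1 (−0.07, −0.06), SEM1 (1.25, 1.53), UCHL5 (0.14, 0.11), NFE2L1 (−0.02, −0.03), UBQLN1 (0.74, 0.73) and ZFAND5 (0.10, 0.11). In limma on FPKM, on which the median of all features was 0.13 with a pseudocount of 1, it turned for PSMB1 (0.03), PSMC1 (0.41), PSMD14 (0.17), PSMD10 (0.04), PSME3 (0.29) and SEM1 (0.42). PSMC1 was at 0.01 with RLE factors, 0.01 in DESeq2 and 0.02 with no filter. With 1 library left out the range crossed 0 for PSMB1 (−0.12 to 0.07), PSMC1 (−0.29 to 0.15), PSMD11 (−0.22 to 0.07), PSMD13 (−0.00 to 0.19) and SEM1 (−0.43 to 0.18). The cause was not tested. The trend with the day called no member with the main settings, RLE factors, no filter or the GC correction. With 3 libraries per group on 3 days, day and replicate cannot be told apart, and the GC correction removes any difference that follows GC content, whatever its origin.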
